A study of Mus musculus with 4 samples.

Results

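The Id2-low ST2-negative cells are the αLPs in which neither *Id2* nor *Il1rl1*, the gene of the IL-33 receptor ST2, reached a value of 1 on the scale of ln(1 + reads per 10000). *Cd3d*, *Cd3e* and *Cd3g* reached 1 in fewer than 2 of the 3 genes, and *Mki67*, a gene of dividing cells, stayed below 1. These limits left 514 cells of the 8322 that passed the limits on reads and on mitochondrial reads. The members were thus chosen by their measured values of these genes, whose levels are a description and carry no test.

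The αLPs are α-lymphoid progenitors, sorted from the bone marrow of C57BL/6 mice as Lin-CD127+FLT3-LPAM-1+ cells after depletion of lineage-positive cells. WT mice were set beside G3SEKO mice, in which a pair of tandem super-enhancers downstream of *Gata3* was deleted with CRISPR. Marrow of several adult mice was pooled for each genotype, each sorted fraction received hashtag antibodies against MHC class I, and both genotypes were captured together and sequenced by TAS-Seq in 2 experiments. In experiment 1, hashtags A0307, A0308 and A0309 marked WT and A0310, A0311 and A0312 marked G3SEKO. In experiment 2, A0302 marked WT. The labels list A0303 under WT as well, and it is taken here as G3SEKO, so each G3SEKO value of experiment 2 rests on that assignment. Cells of a genotype in an experiment count as 1 sample, which gives 4 samples. Experiment 1 was sorted on FACSAria II, and the labels of experiment 2 name BD Melody too, so sorter, depth and experiment cannot be told apart.

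*Id2* encodes an inhibitor that binds E proteins, the transcription factors of *Tcf3*, *Tcf4* and *Tcf12*, and keeps them off DNA. All ILC lineages depend on it, and it comes on as lymphoid progenitors leave the B cell and T cell fates, which E proteins promote. A progenitor in which *Id2* is not yet on can therefore still carry *Dntt*, which encodes terminal deoxynucleotidyl transferase of antigen receptor rearrangement, or *Ly6d*, a surface marker of early B-biased progenitors.

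The members made up 28 of 737 WT cells of experiment 1 (3.8%, exact 95% binomial interval 2.54 to 5.44%), 11 of 63 G3SEKO cells (17.5%, 9.05 to 29.1%), 289 of 6075 WT cells of experiment 2 (4.76%, 4.24 to 5.32%) and 186 of 1447 G3SEKO cells (12.9%, 11.2 to 14.7%). The share was above WT in both G3SEKO samples, but ST2-positive cells with *Id2*, which the rule leaves out, were 57.5% and 58.4% of WT cells and 3.17% and 3.46% of G3SEKO cells, so a share of all cells moves with them. Over members and their ST2-negative counterparts with *Id2* (defined below), the members were 28 of 268 WT cells (10.4%, 7.06 to 14.7%) and 11 of 49 G3SEKO cells (22.4%, 11.8 to 36.6%) of experiment 1. In experiment 2 they were 289 of 1818 WT cells (15.9%, 14.2 to 17.7%) and 186 of 1244 G3SEKO cells (14.95%, 13.01 to 17.06%), so the higher G3SEKO share of all cells was not seen there over ST2-negative cells. In experiment 1, 9 of the 11 G3SEKO members carried hashtag A0312, where they were 29.0% of 31 cells. The intervals cover counting error only, since the files hold reads and not molecules.

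The counterparts used for comparison are the 2865 Id2-kept cells, which met every other limit but had an *Id2* value of at least 1. They numbered 240 and 38 in WT and G3SEKO of experiment 1 and 1529 and 1058 in experiment 2. Members were read less deeply, with a median of 18665 reads in WT and 20769 in G3SEKO of experiment 2 beside 26666 and 42446.5 in Id2-kept cells, and 334074 and 260016 reads beside 460636 and 541118 in experiment 1. At the *Id2* limit, the 2 highest members of experiment 2 stood at 0.997 and 0.996 and the 2 lowest Id2-kept cells at 1.01 and 1.02, with a median of 3.10 over its Id2-kept cells. In experiment 1 the highest members stood at 0.571 and 0.553 and the lowest Id2-kept cells at 1.03 and 1.10. Every member of experiment 1 held at least 1 *Id2* read, while 148 WT and 122 G3SEKO members of experiment 2 held none. The experiments shared 7 cell barcodes, of which 0 belonged to members.

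Of the genes proposed as marks of early progenitors (*Id2*, *Il7r*, *Tcf7*, *Nfil3* and *Flt3*), at least 2 reached 1 in 159 of 514 members (30.9%), which the rule on *Id2* limits to the other 4 genes. The share was 67.9% of WT and 36.4% of G3SEKO members of experiment 1, and 13.5% and 52.2% of those of experiment 2. *Il7r*, which encodes the sorting antigen CD127, reached 1 in 85.7%, 54.5%, 75.1% and 81.7% of members (WT and G3SEKO of experiment 1, then of experiment 2), beside 91.2%, 94.7%, 88.2% and 94.8% of Id2-kept cells. *Tcf7*, the gene of the factor TCF-1 of T cell and ILC progenitors, reached 1 in 75.0%, 36.4%, 18.3% and 61.8% of members and in 57.5%, 65.8%, 21.8% and 66.3% of Id2-kept cells. *Nfil3*, the gene of a factor needed early in the ILC lineage, reached 1 in 2 and 5 WT members of experiments 1 and 2 and in 0 G3SEKO members. *Flt3*, the gene of the antigen that the sort gated against, reached 1 in 2 members in all, both WT of experiment 2. By cluster, described next, at least 2 of these genes reached 1 in 7.92% to 60% of the cells.

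Clustering of the members gave 5 groups, named from marker lists, with the rule's own genes left out of the features. A cluster is built from the same genes that describe it, so its leading genes are a description with no test. The largest cluster, of 240 cells, was ILC2-like, the next, of 119 cells, T lineage-like, and the third, of 80 cells, early lymphoid progenitor-like. Clusters of 64 and 11 cells stay unnamed and are called by their leading genes, *Il18r1* and MHC class II genes.

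**Figure D1:**
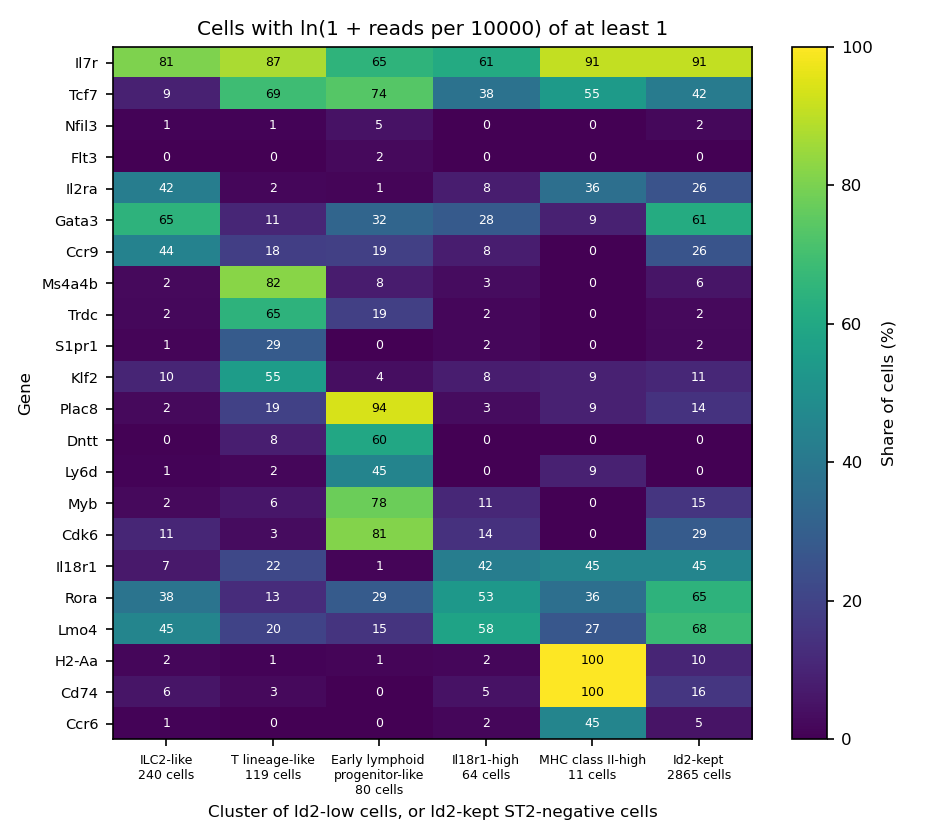
Each row is a gene, each column a cluster of Id2-low ST2-negative cells or the 2865 Id2-kept ST2-negative cells, and each number and colour the share of cells (%) with ln(1 + reads per 10000) of at least 1, over all samples. *Plac8*, *Dntt* and *Ly6d* fill the early lymphoid progenitor-like column, *Ms4a4b* and *Trdc* the T lineage-like column, and *Flt3* and *Nfil3* stay near 0 in all of them.

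The ILC2-like cells carried some ILC2 markers and lacked others, with 9 of 14 markers at 1 or more in over 5% of the cells. *Il2ra*, the gene of CD25, led them and reached 1 in 42.5% of these cells and 4.38% of the other members. *Gata3*, the gene of the factor on which ILC2s depend, reached 1 in 64.6% and 21.2%, *Inpp4b*, a phosphoinositide phosphatase gene, in 57.5% and 10.6%, and *Ccr9*, the gene of a gut-homing chemokine receptor, in 44.2% and 15.3%. At least 2 of the 14 ILC2 markers were carried by 80.4% of the cells. *Rora* reached 1 in 38.3% and *Icos*, a costimulatory receptor gene, in 32.9%, beside 64.7% and 43.6% of Id2-kept cells. *Klrg1* reached 1 in 3.75% and the cytokine gene *Il5* in 0.417% of the cells. *Tcf7* reached 1 in 9.17% of them. The cluster held 113 cells with no *Id2* read, 47.1% of its cells, and its median of 18991.5 reads in experiment 2 was 0.992 times that of all members there. The surface antigen gene *Ly6a*, *Rnf128*, *Mdfic*, *St3gal6*, *Ahcyl2* and *Lztfl1* completed its 10 leading genes.

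These cells were 209 of 289 WT members of experiment 2 (72.3%, interval 66.8 to 77.4%) and 21 of 186 G3SEKO members (11.3%, 7.13 to 16.7%). In experiment 1 the cluster took 7 of 28 WT members (25%), of which 1 had *Lyz2*, a gene of monocytes and neutrophils, at 1 or more. It took 3 of 11 G3SEKO members (27.3%, 6.02 to 61.0%), of which 2 had 3 or more B lineage markers and 1 had *Lyz2* and the macrophage gene *Adgre1* at 1 or more. The name therefore does not hold for these 3 cells, and experiment 1 gives no comparison of the genotypes. The *Gata3* level, on which the cluster rests in part, itself differs between the genotypes, so these cluster sizes are not a measure of cell numbers alone.

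The T lineage-like cells were led by *Ms4a4b*, a gene of T and NK cells, which reached 1 in 82.4% of them and 3.54% of the other members. *Trdc*, the constant region of the T cell receptor δ chain (chromosome 14, positions 54142851 to 54148868, GRCm38), reached 1 in 64.7% and 5.32%. The egress receptor gene *S1pr1* reached 1 in 28.6% and 1.01%, and *Klf2*, the gene of a factor that drives *S1pr1*, in 55.5% and 8.61%. *Lef1*, a relative of *Tcf7*, reached 1 in 43.7%, *Klrd1*, an NK receptor gene, in 25.2%, and *Gimap4*, *Arl4c*, *Epsti1* and *Acp5* were the other leading genes. The antibodies of the lineage gate covered the T cell antigens CD3e, CD4, CD5 and CD8 and the NK cell antigen NK1.1. At least 2 NK/ILC1 markers were carried by 18.5% of the cells. At least 2 of 12 T lineage markers were carried by 80.7% of the cells, but *Trac*, the α chain constant region, reached 1 in 10.9%. *Trbc1* and *Trbc2* are near-identical copies, and their reads may be split between them.

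A single *Cd3* gene at or above 1, which the rule allows, was found in 63 of the 94 T lineage-like G3SEKO members of experiment 2, in 9 of 16 WT members there, in 6 of 7 WT members of experiment 1 and in 0 of 2 G3SEKO members. The T lineage-like cells made up 50.5% of G3SEKO members of experiment 2 (43.1 to 57.9%) beside 5.54% of WT members (3.20 to 8.84%). In experiment 1 the cluster took 7 of 28 WT members (25%, 10.7 to 44.9%) and 2 of 11 G3SEKO members (18.2%, 2.28 to 51.8%), 1 of which had 3 or more B lineage markers, so these shares are not compared. Summed reads were scaled to reads per 1e6 (CPM). In experiment 2 *Trdc* had 78.4 CPM in WT members and 416 CPM in G3SEKO members. Experiment 1 had 199 CPM in WT members and 13.8 CPM in G3SEKO members.

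**Figure D2:**
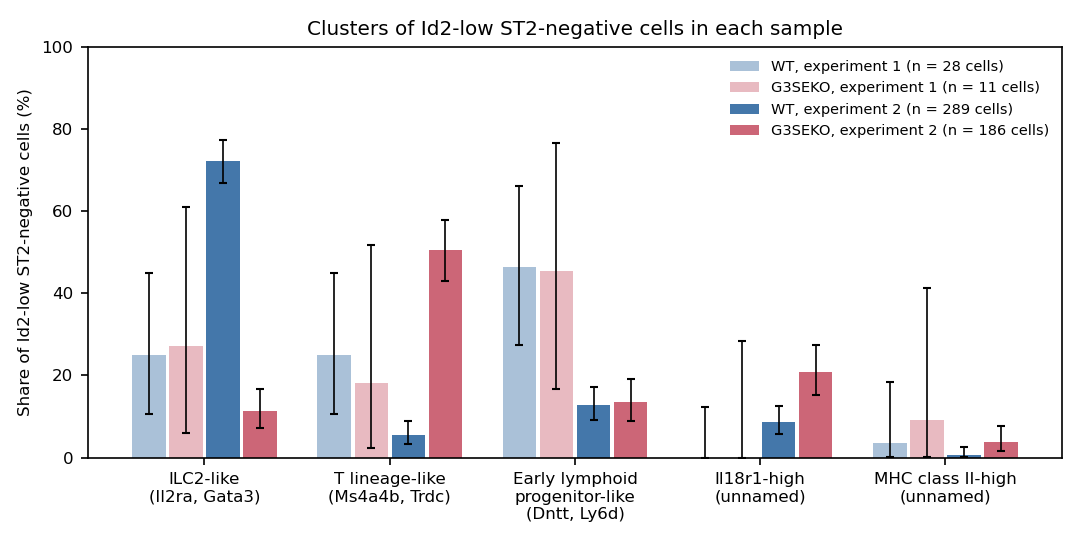
Bars give the share (%) of the Id2-low ST2-negative cells of each sample that fell in each of the 5 clusters, with exact 95% binomial intervals (counting error only). The ILC2-like and T lineage-like bars of experiment 2 part by genotype, those of experiment 1 are not compared (3 of the 5 G3SEKO cells in these bars had B lineage markers and 1 had *Lyz2* and *Adgre1*), and the early lymphoid progenitor-like share differs little by genotype (12.8% of WT and 13.4% of G3SEKO members of experiment 2).

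The early lymphoid progenitor-like cells carried *Plac8*, *Dntt* and *Ly6d*, with 7 of 10 early lymphoid markers at 1 or more in over 5% of the cells. Some of these markers were only just over that limit, with *Cd34* at 8.75% and *Bcl11a* and *Il12a* at 6.25% each. *Bcl11b*, a gene of the ILC2 list, reached 1 in 57.5% of these cells and in 23.3% of the ILC2-like cells. *Plac8*, a gene of early lymphoid and myeloid progenitors, reached 1 in 93.8% of them and 7.37% of the other members, *Dntt* in 60% and 2.53%, *Ly6d* in 45% and 1.15% and *Adgrg1*, the gene of an adhesion receptor, in 51.2% and 0.0%. *Myb*, needed by early haematopoietic cells, reached 1 in 77.5%, *Cdk6*, a kinase gene of the G1 phase, in 81.2%, and *Stmn1*, a microtubule regulator gene of growing cells, in 62.5%. *Arpp21*, *Anxa2* and *Rapgef3* completed the 10 leading genes. At least 2 of the 10 early lymphoid markers were carried by 65.0% of the cells, at least 2 T lineage markers by 68.8%, at least 2 early ILC progenitor markers by 68.8% and at least 2 ILC2 markers by 55%, so the name rests on the leading genes *Dntt* and *Ly6d* and not on the list alone. These cells were also the most deeply read, with a median of 67547 reads in experiment 2, 3.53 times that of all members there.

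Beside *Dntt*, the cells carried some genes of neighbouring lineages and lacked others. Of the 59 members with *Dntt* at 1 or more, 50 carried *Tcf7* (84.7%, beside 31.4% of the other members), 46 *Myb* (78.0% and 7.91%), 37 *Cpa3* (62.7% and 9.23%), a protease gene of mast cells that lymphoid progenitors also transcribe, 29 *Ly6d* (49.2% and 2.64%) and 54 *Trbc1* (91.5% and 43.1%). *Flt3* reached 1 in 1 of the 59 and *Mpo*, a gene of granulocyte progenitors, in 0, which allows a share of up to 6.06%. *Rag1*, which cuts antigen receptor genes, reached 1 in 1.25% and *Rag2* in 7.50% of the early lymphoid progenitor-like cells. The cells thus held *Dntt* with little *Rag1* and *Flt3*.

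*Dntt* lies on chromosome 19 at positions 41029275 to 41059525 and *Plac8* on chromosome 5 at 100553725 to 100572245 (GRCm38). The 250 bases before their starts are shown because E proteins, the factors that *Id2* holds in check, bind the E-box, written CANNTG, which reads the same on both strands. The sequences are from RefSeq on GRCm38.p6, and capitals mark each E-box. RefSeq gives *Plac8* 2 starts, and both are shown.
Dntt, chr19:41029025-41029274, plus strand: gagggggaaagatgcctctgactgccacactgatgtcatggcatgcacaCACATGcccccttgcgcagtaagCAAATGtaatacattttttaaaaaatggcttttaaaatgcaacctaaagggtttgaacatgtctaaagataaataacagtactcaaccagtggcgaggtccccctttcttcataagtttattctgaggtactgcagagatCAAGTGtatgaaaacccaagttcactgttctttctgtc
Plac8 first start, chr5:100572206-100572455, minus strand: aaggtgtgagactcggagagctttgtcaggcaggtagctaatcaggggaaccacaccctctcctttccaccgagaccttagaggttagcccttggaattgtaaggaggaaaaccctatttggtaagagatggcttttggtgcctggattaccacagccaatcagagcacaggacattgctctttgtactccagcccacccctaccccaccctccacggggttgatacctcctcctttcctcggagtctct
Plac8 second start, chr5:100563097-100563346, minus strand: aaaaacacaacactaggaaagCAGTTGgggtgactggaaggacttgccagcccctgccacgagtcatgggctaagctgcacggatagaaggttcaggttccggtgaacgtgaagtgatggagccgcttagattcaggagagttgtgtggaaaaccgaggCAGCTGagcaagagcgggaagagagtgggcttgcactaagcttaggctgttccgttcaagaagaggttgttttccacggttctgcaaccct
The *Dntt* window holds 3 E-boxes and the *Plac8* windows 0 and 2. Of 32851 windows of the same length, 66.2% hold at least 1, with a median of 1. Of a stricter form of the E-box, with fewer middle bases allowed, the *Dntt* window holds 0 and the *Plac8* windows 0 and 1. At least 1 of this stricter form is held by 27.7% of the 32851 windows. A match of letters is a description and not a site that a factor was shown to bind.

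*Dntt* was rare in Id2-kept cells. It reached 1 in 12 of 28 WT members (42.9%, 24.5 to 62.8%) and 3 of 11 G3SEKO members (27.3%, 6.02 to 61.0%) of experiment 1, and in 21 of 289 (7.27%, 4.55 to 10.9%) and 23 of 186 (12.4%, 8.0 to 18%) of experiment 2. In Id2-kept cells it did so in 0 of 240 and 0 of 38, which allows shares of up to 1.53% and 9.25%, and in 3 of 1529 (0.196%) and 2 of 1058 (0.189%). The lowest share among members was above the highest among Id2-kept cells in each sample. Over all cells within the limits, members held 12 of 14 and 3 of 5 cells with *Dntt* in experiment 1 and 21 of 56 and 23 of 50 in experiment 2, and the rest lay among cells that the rule left out for other reasons or with *Id2* at 1 or more.

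The cluster of 64 cells led by *Il18r1*, the gene of the IL-18 receptor of ILC precursors, occurred in experiment 2 only. It was shallow, with a median of 13476 reads, and *Il18r1* reached 1 in 42.2% of its cells and 10.7% of the other members. The gene is not particular to it, since it reached 1 in 45.5% of the cluster of 11 cells described next and in 45.3% of Id2-kept cells. *Rora*, a factor gene of ILC2s, reached 1 in 53.1%, *Lmo4* in 57.8% and *Ikzf3* in 31.2%, and *Dcaf7*, *Gclc*, *Septin11*, *Akap8l*, *Trgc1* and *Igfbp4* were the others. It made up 8.65% of WT and 21.0% of G3SEKO members. The cells carried ILC2 markers (46.9%), early ILC progenitor markers (53.1%) and T lineage markers (40.6%), and no name was given.

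The cluster of 11 cells was led by *H2-Eb1*, *H2-Aa*, *H2-Ab1* and *Cd74*, the genes of MHC class II and its invariant chain, and by *Ciita*, the gene of their master regulator. *H2-Aa* and *Cd74* reached 1 in 100% of these cells. *Ccr6*, a chemokine receptor gene of LTi cells, reached 1 in 45.5% and *Il1r1* in 36.4%, and *Ncoa7*, *Asb2* and *Psd2* were also leading. At least 2 dendritic cell markers were carried by all 11, and at least 2 LTi/ILC3 markers by 7. The dendritic cell list includes these MHC class II genes, so no name was given. The cluster had 1 WT and 1 G3SEKO member in experiment 1, the latter with 3 or more B lineage markers, and had 2 WT and 7 G3SEKO members in experiment 2.

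Cells of the B lineage were found in 1 sample. In G3SEKO of experiment 1, 4 of 11 members had at least 3 B lineage markers at 1 or more, and all 4 carried hashtag A0312. *Cd79a*, of the B cell receptor, reached 1 in 4 of them, *Pax5*, the factor gene of B cell identity, in 3, *Vpreb3* in 3, the light chain gene *Igkc* in 3, *Ebf1* in 2 and *Blk*, a B cell kinase gene, in 3. *Dntt* reached 1 in 0 and *Rag1* in 1 of them, while *Ly6d* did so in 4. No other sample had such a cell, although *Cd79a*, *Igkc* and *Vpreb3* are listed in experiment 1 alone. The gate included an antibody to B220. *Ighm* reached 1 in 24.2% to 90.9% of the members of a sample and in Id2-kept cells too, and it raises the number of cells that carry 2 B lineage markers.

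Myeloid and other cells were few. At least 2 neutrophil markers were carried by 1 WT and 1 G3SEKO member of experiment 1 and by 0 of 475 members of experiment 2, where *Ltf*, *Camp* and *Ngp* are not listed. *Lyz2* reached 1 in 1 member of each genotype in experiment 1, and the richest cell held 95.6% of its reads there. At least 2 markers were carried by 2.33% of members for erythroid cells, 0.778% for monocytes and macrophages, 0.195% for basophils and mast cells and for stromal, endothelial, plasma and megakaryocyte lists each, and 0.0% for eosinophils. LTi/ILC3 markers were carried by 1.95%, conventional dendritic cell markers by 2.33%, NK/ILC1 markers by 6.61%, B lineage markers by 4.09%, plasmacytoid dendritic cell markers by 8.37%, of which *Tcf4* and *Ccr9* are also lymphoid genes, and stem and multipotent progenitor markers by 13%. The 48 members with no list (9.34%) had a median of 10433.5 reads.

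**Figure D3:**
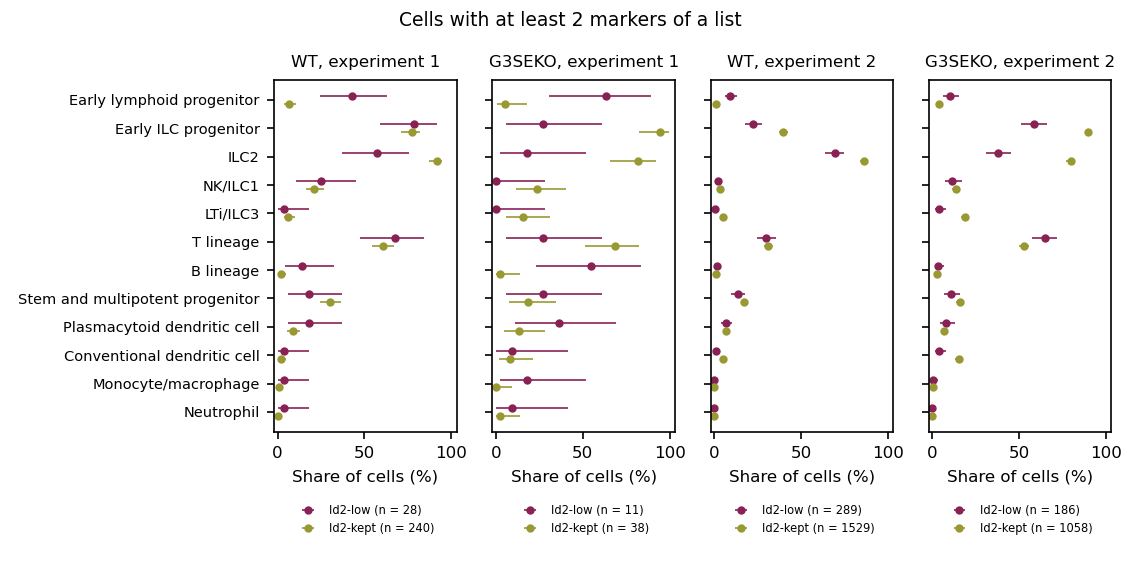
Points give the share of cells (%) with at least 2 markers of a list at 1 or more on the scale of ln(1 + reads per 10000), with exact 95% binomial intervals, for Id2-low and Id2-kept ST2-negative cells of each sample. Early lymphoid progenitor markers lie higher in Id2-low cells and ILC2 markers lower in all 4 samples, and the B lineage share of G3SEKO in experiment 1 rests on 6 of 11 cells. The early lymphoid share of that sample, 7 of 11 cells, may include B lineage cells that had *Ly6d*.

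Set beside the Id2-kept cells, members carried early lymphoid progenitor markers more often, in 42.9%, 63.6%, 9.0% and 10.2% of cells (in the same order of samples) beside 6.67%, 5.26%, 1.24% and 3.50%. The 63.6% is 7 of 11 cells and may include B lineage cells, since all 4 of these had *Ly6d*, a marker on this list, at 1 or more. Members carried ILC2 markers less often, in 57.1%, 18.2%, 69.6% and 37.6% beside 91.7%, 81.6%, 86.0% and 79.5%. Early ILC progenitor markers were carried by 78.6%, 27.3%, 22.5% and 58.6% of members beside 77.1%, 94.7%, 39.9% and 89.6%, lower in 3 of the 4 samples. T lineage markers had no common direction, at 67.9%, 27.3%, 29.8% and 64.5% beside 60.8%, 68.4%, 31.3% and 52.7%. With each cell thinned at random to one depth, the lowest number of reads allowed in experiment 2, the early lymphoid shares of members were 39.3%, 63.6%, 9.34% and 9.14%, and the ILC2 shares were 46.4%, 9.09%, 66.4% and 30.6%. The thinned ILC2 shares of Id2-kept cells were 87.9%, 76.3%, 82.8% and 73.8%, so the order held at one depth.

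Members and Id2-kept cells were then compared over 4 pairs of summed reads. In sums over cells, fewer cells of a type and less RNA per cell cannot be told apart. With reads summed as deposited, 1 gene of 16187 passed edgeR's quasi-likelihood test at an adjusted p below 0.05, a background of 0.00618%, and it was *Plac8*, higher in members. *Plac8* stood at 3038, 3620, 1443 and 1607 CPM in members and at 251, 192, 102 and 167 CPM in Id2-kept cells, in the same order of samples, and the groups did not overlap. Its log2 change was 3.85 (SE 0.21) with an edgeR adjusted p of 0.0300. The call was lost when the pair of WT in experiment 1, of WT in experiment 2 or of G3SEKO in experiment 2 was left out (edgeR adjusted p = 0.392, 0.158 and 0.134), or when both pairs of experiment 1 or of experiment 2 were (0.0663 and 0.327). Over these left-out samples the log2 change was 3.57 to 4.12. Without the 4 cells of the B lineage the change was 3.88 with an edgeR adjusted p of 0.0521, and without the early lymphoid progenitor-like cluster the change was 1.22 (0.855). At an unadjusted p below 0.05, 1367 genes passed, and DESeq2 called 342 higher and 533 lower.

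Summed reads weigh deeply read cells more. The early lymphoid progenitor-like cells were 12.8% and 13.4% of WT and G3SEKO members of experiment 2 but held 35.8% and 34.8% of their reads, and in experiment 1 they were 46.4% and 45.5% of cells and held 71.2% and 63.1% of reads. With every cell thinned to one depth, 31 genes of 10286 were higher (a background of 0.301%) and 24 lower (0.233%) by the same edgeR test. Without the 4 cells of the B lineage these counts were 40 and 47, and 50 of the 55 genes passed again. The genes named from this fit were chosen after their values were seen.

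The largest rises were those of *Dntt* and *Ly6d*, 2 of 7 early lymphoid progenitor markers tested, followed by *Id3*, *Sstr2*, *Mdga1*, *Fads2* and *Ifitm2* (5.96 to 4.96 on the log2 scale), which are on no such list. *Dntt* stood at 960, 300, 157 and 196 CPM in members and at 1.86, 0, 2.82 and 0.562 CPM in Id2-kept cells, all thinned, a log2 change of 7.44 (SE 0.54) with an edgeR adjusted p of 5.68e-08. *Ly6d* stood at 403, 709, 77.1 and 90.3 CPM beside 4.33, 7.85, 0.292 and 0.421 CPM, a change of 7.17 (SE 0.48) with an edgeR adjusted p of 3.93e-08. *Plac8* changed by 3.17 (SE 0.22) and *Arpp21* by 4.46 (SE 0.76). Every member sample lay above every Id2-kept sample for these genes. *Cpa3* changed by 1.67 (SE 0.30) with an edgeR adjusted p of 0.0119 and *Stmn1* by 1.80 (SE 0.34) with an edgeR adjusted p of 0.0153.

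Of 7 T lineage markers tested with thinned cells, *Cd6* and *Trdc* rose, and 0 of 11 passed in the sums as deposited. *Trdc* stood at 318, 40.9, 99.2 and 527 CPM in thinned members and at 16.7, 27.5, 17.5 and 44.5 CPM in Id2-kept cells, a log2 change of 3.12 (SE 0.47) with an edgeR adjusted p of 0.00234. The lowest member sample, G3SEKO of experiment 1, lay below the highest Id2-kept sample, so the groups overlapped. *Ms4a4b* changed by 2.48 (SE 0.32), *Cd6*, a T cell surface gene, by 4.21 (SE 0.86) and *Lck*, the kinase gene of T cell receptor signals, by 1.46 (SE 0.27), each with an edgeR adjusted p below the threshold. Without the 4 B lineage cells, *Cd2* and *Cd24a* were at edgeR adjusted p = 0.0838 and 0.0752.

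**Figure D4:**
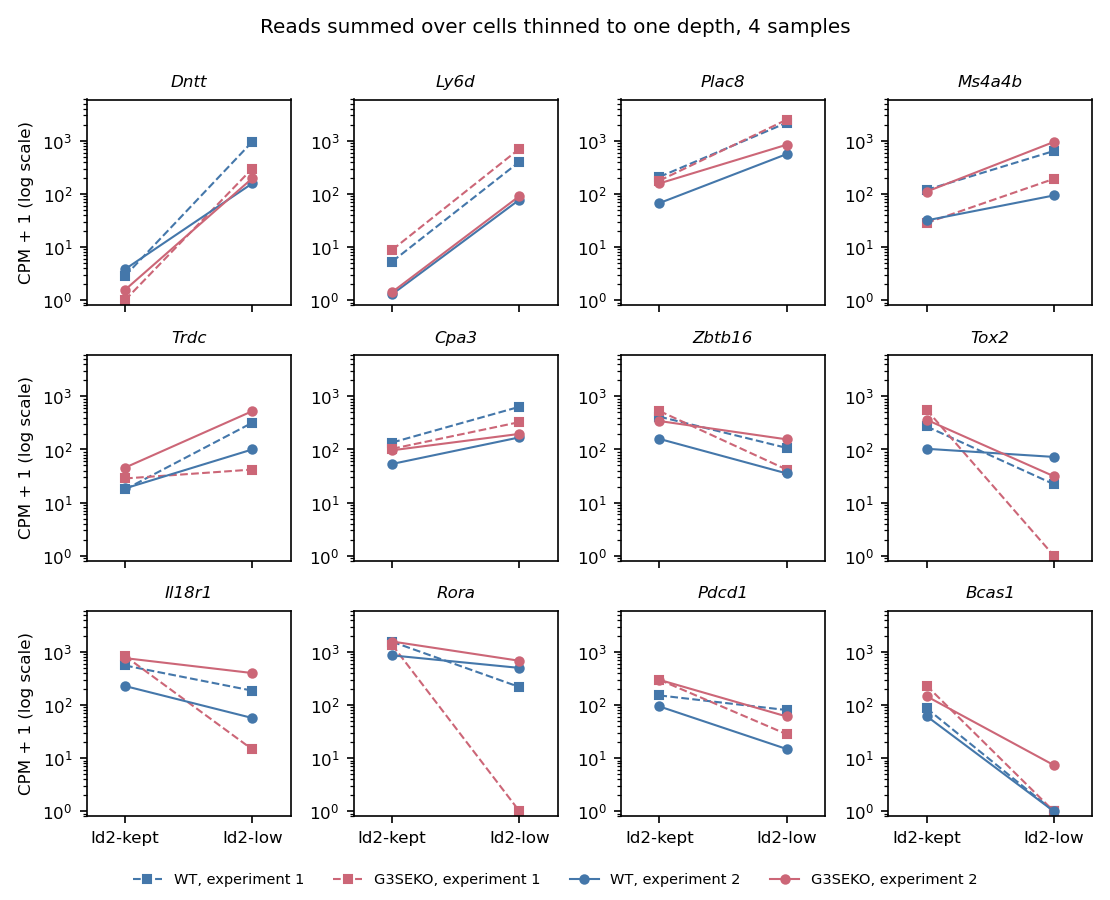
Each panel gives the CPM plus 1 (log scale) of a gene in sums of Id2-kept and Id2-low ST2-negative cells thinned to one depth, with 1 line for each of the 4 samples (a value of 1 stands for 0 CPM). *Dntt*, *Ly6d*, *Plac8*, *Ms4a4b*, *Trdc* and *Cpa3* slope upward and *Zbtb16*, *Tox2*, *Il18r1*, *Rora*, *Pdcd1* and *Bcas1* downward in all 4 samples.

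The largest falls were those of *Bcas1* and *Aatk* (-5.70 and -5.62 on the log2 scale), then of *Dkk3*, *Klrb1b*, *Igfbp7*, *Lingo4* and *Rxrg* (-3.22 to -2.90), which are on no ILC list. Of 10 early ILC progenitor markers tested, 5 were lower and 0 higher in thinned members (*Zbtb16*, *Tox*, *Tox2*, *Pdcd1* and *Il18r1*), with a list median of -1.37 on the log2 scale beside -0.13 over all genes. *Zbtb16*, the gene of PLZF, the factor of ILC progenitors, stood at 106, 40.9, 34.5 and 154 CPM in members and at 415, 530, 157 and 343 CPM in Id2-kept cells, a change of -1.99 (SE 0.35) with an edgeR adjusted p of 0.00953. *Tox2*, of a family needed for ILC development, changed by -2.81 (SE 0.56), *Pdcd1*, the gene of PD-1, by -2.20 (SE 0.41) and *Il18r1* by -1.93 (SE 0.40). Among the ILC2 markers *Rora* changed by -2.08 (SE 0.47) with an edgeR adjusted p of 0.0486, and 0 of 9 tested were higher. *Bcas1* fell by 5.70 (SE 0.75) with an edgeR adjusted p of 0.000377, from 61.0 to 232 CPM in Id2-kept cells to 0 to 6.39 CPM in members.

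Among the homing and egress genes 0 of 11 were lower, and *Ccr9*, *Itga4* and *Itgb7*, the last 2 of which encode LPAM-1, did not pass. Of 16 ILC specification factors 4 were lower (*Rora*, *Tox*, *Tox2*, *Zbtb16*) and 0 higher, and of 5 cell cycle genes, 10 immediate early and stress genes and 7 cytokine receptors of progenitors 0 passed in either direction. In the cell cycle the rule itself took out cells with *Mki67*.

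Among Id and E proteins only *Id3* passed, of 4 tested in the thinned fit. *Id3*, a relative of *Id2* with the same action on E proteins, stood at 58.4, 123, 23.7 and 36.0 CPM in thinned members and at 2.48, 0, 0 and 0.983 CPM in Id2-kept cells, a log2 change of 5.96 (SE 0.95) with an edgeR adjusted p of 0.00477. It reached 1 in 1, 3, 4 and 6 members of the 4 samples. *Tcf3*, *Tcf4* and *Tcf12* changed by 0.37 (SE 0.35), 0.26 (SE 0.39) and 0.25 (SE 0.35). Of the genes known to be driven by E proteins, 6 were tested and *Dntt* was higher, with a list median of 0.66. *Notch1* changed by 0.90 (SE 0.40) and did not pass (edgeR adjusted p = 0.764).

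*Il7r*, *Tcf7* and *Nfil3* passed neither test, and *Flt3*, too low for the thinned one, did not pass the other. *Il7r* changed by -0.94 (SE 0.39) in the sums as deposited, with an edgeR adjusted p of 0.594, and was lower in members in all 4 pairs. *Tcf7* changed by -0.08 (SE 0.34) with an edgeR adjusted p of 0.952, *Nfil3* by 0.21 (SE 0.77) with 0.945 by edgeR and *Flt3* by -0.92 (SE 1.78) with 0.889 by edgeR. The signs of these last 3 turned under some alternatives.

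The genotypes were compared among members over the 4 sums, with *Gata3*, which has the deleted super-enhancers far downstream, first. *Gata3* (chromosome 2, positions 9857078 to 9890034, GRCm38) had 405 CPM in WT members and 28.9 CPM in G3SEKO members of experiment 1. In experiment 2 WT members had 751 CPM and G3SEKO members 231 CPM. It reached 1 in 12 of 28, 1 of 11, 162 of 289 and 38 of 186 cells. The genotypes did not overlap, a pattern that 15.1% of the 13896 genes tested showed in this direction and 13.1% in the other. The log2 change was -2.70 (SE 0.62), with an edgeR adjusted p of 0.999. With cells thinned to one depth *Gata3* changed by -2.74 (SE 0.55) with an edgeR adjusted p of 0.00219, and by -2.75 (SE 0.58) with 0.0111 by edgeR without the 4 B lineage cells. Within the ILC2-like cluster of experiment 2 *Gata3* had 1192 CPM over 209 WT cells and 610 CPM over 21 G3SEKO cells.

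In the sums as deposited 0 genes passed in either direction (a background of 0% for both), 305 had an unadjusted p below 0.05 in edgeR, and DESeq2 called 72 higher and 34 lower. With cells thinned, 4 genes were higher (0.0467% of 8567) and 1 lower (0.0117%). *Blk* stood at 0 CPM in both WT samples and at 559 and 24.0 CPM in G3SEKO, from 3 and 1 cells at 1 or more. The 3 cells were among those of the B lineage, and without these *Blk* was not tested. *Ighm*, the immunoglobulin μ chain, changed by 1.57 (SE 0.34) with an edgeR adjusted p of 0.00841 and by 0.14 (SE 0.51) without them. *Lyz2* had 58.4 CPM (WT) and 2563 CPM (G3SEKO) in experiment 1, beside 1.03 and 0 CPM in the other, so the direction was opposite in the experiments. In experiment 1, 1 cell held 95.6% of its unthinned reads. *Lyz2* passed all the same, with an edgeR adjusted p of 3.25e-05, so a pass in this fit does not mean that both experiments share a direction. The remaining call, the clone-named gene AC160336.1, changed by 1.03 (SE 0.24) and, without the 4 B lineage cells, by 0.90 (SE 0.30) with an edgeR adjusted p of 1. *Rnf128*, a ubiquitin ligase gene among the leading genes of the ILC2-like cells, changed by -4.68 (SE 0.69) in the sums as deposited with an edgeR adjusted p of 0.999, in the same direction in both experiments.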

How the data were processed

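Single cells of the 4 samples (WT and G3SEKO in 2 experiments) were analysed from 2 deposited tables of read counts per gene and cell. The authors trimmed and aligned the reads with Bowtie2 to GRCm38 transcripts, took each cell's genotype and doublets from its hashtag reads, and named Seurat 4 in the processing notes. The counts are reads and not molecules, so copies made by PCR add to them. The tables list 24641 and 24838 genes, each with reads in at least 5 columns, and 102 columns of doublets or cells with no hashtag were not used. No caller of doublets from expression was run, so doublets within a hashtag remain.

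Cells with at least 83012 (experiment 1) or 6733 reads (experiment 2) and at most 10% mitochondrial reads entered. A cell carried a marker list with at least 2 markers at 1 or more. The members were clustered (scanpy 1.11.5, leidenalg 0.10.2) on 2000 variable genes centred within each experiment, with 15 principal components, 15 neighbours and resolution 0.5. Reads were summed over the cells of each sample, and genes of both tables (23058) were tested in R 4.3.3 by the quasi-likelihood test of edgeR 4.0.16 (TMM, filterByExpr, Benjamini-Hochberg adjusted p below 0.05), with the sample (members against Id2-kept cells) or the experiment (genotypes) as a block. The block rests on the design, since both sums of a pair come from the same library and hashtags. Pooled marrow gives 1 sample per genotype and experiment, so p-values rest on the spread between these samples. With 4 sums and a block, the genotype fit measures that spread poorly, so its p-values are weak evidence for any single gene. Alternatives included DESeq2 1.42.0 and cells thinned to 6733 reads each. Counts were simulated from the sums as deposited. There the edgeR test recovered 17 of 94 genes changed 4-fold and 43 of 96 changed 16-fold in the first comparison (15506 genes). In the second it recovered 5 of 95 and 32 of 94 (12956 genes). False calls numbered 0 in the first and 8 in the second. The fits with thinned cells were not simulated, so these counts do not cover their calls.

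Genes were named by list, as the 10 leading genes of each cluster by fold, and as the 10 largest called changes in each direction. The members and lists were chosen with earlier results of these data known. Some genes are not reported here.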

Additional observations from a re-analysis of the deposited data

Results flagged for a closer look

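For 3 genes the difference between members and Id2-kept cells went one way in both WT samples and the opposite way in both G3SEKO samples. The difference between the genotypes was not tested. For *Blk* the log2 CPM of members minus Id2-kept cells was -2.53 and -1.20 in WT and 6.50 and 0.82 in G3SEKO (experiments 1 and 2), a gap of -5.52 between the means. The cells with 3 or more B lineage markers held 3 of the 4 members with *Blk* at 1 or more. For *Acp5*, a leading gene of the T lineage-like cluster, the values were -1.84 and -0.22 in WT and 1.73 and 2.74 in G3SEKO, a gap of -3.26. For *Trgc1*, whose reads cannot be surely told from its near-identical copies, they were 0.84 and 0.52 in WT and -3.28 and -0.04 in G3SEKO, a gap of 2.34.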

How the results depend on the processing

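With no *Id2* read in place of a low value, 0, 0, 148 and 122 members remained (WT and G3SEKO of experiments 1 and 2), 270 in all, so this rule holds no cell of experiment 1 and could not be fitted between the genotypes. The shares carrying early lymphoid progenitor, early ILC progenitor, ILC2, NK/ILC1 and T lineage markers were 7.39%, 19.5%, 36.6%, 3.31% and 22.8% with at least 3 markers and 20.6%, 56.4%, 77.6%, 13.2% and 66.9% with 1 read per marker. With no *Id2* read the first 4 were 8.52%, 30.4%, 46.7% and 4.07%, and the thinned ILC2 share was 51.2%. At resolution 1 there were 8 clusters, with 81 cells in the one richest in *Il2ra* and 29 in that richest in *Cd74*. The *Il18r1* cluster was lost at resolution 0.25, where its 64 cells joined the ILC2-like cells in a cluster of 326, and with Gm and ribosomal protein genes kept, where 26 of the 64 stayed together. The cluster richest in *Il18r1* was then the MHC class II one (11 and 12 cells).

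Between members and Id2-kept cells, DESeq2 called 342 genes higher and 533 lower, edgeR 7 higher without a filter, 5 with no *Id2* read, and 31 higher and 24 lower with thinned cells. The paired fit called 1 gene, and without the replicate block 4 were higher. Leaving out samples gave 0 to 5 higher (5 without G3SEKO of experiment 1) and 0 lower. Chosen after seeing the data, leaving out the T lineage-like cluster gave 5 higher, leaving out the early lymphoid progenitor-like cluster 0, leaving out the B lineage cells 0, and thinning as well 40 higher and 47 lower. Between the genotypes, DESeq2 called 72 higher and 34 lower, thinning 4 and 1, thinning without the B lineage cells 3 and 1, and leaving out the early lymphoid progenitor-like cluster 1 higher. Leaving out a sample also dropped the replicate block and left 1 sample in a genotype, so no count of genes is given for it. The causes were not tested.

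Signs turned as follows (log2 change, members against Id2-kept cells). With no *Id2* read *Tcf7* was 0.44, *Nfil3* -1.33 and *Flt3* 1.0. *Nfil3* was -0.61 with thinned cells and -0.52 without the B lineage cells too, where *Tcf7* was 0.11. Without the replicate block *Flt3* was 0.85 and *Tyrobp* 0.50. Over left-out samples *Tcf7* ranged from -0.40 to 0.36, *Nfil3* from -0.70 to 0.93, *Flt3* from -2.68 to 0.37 and *Tyrobp* from -1.72 to 0.47. Without the early lymphoid progenitor-like cluster *Adgrg1* was -6.27, *Arpp21* -3.25, *Cd24a* -1.27, *Cpa3* -0.80 and *Marcks* -0.040, and without the T lineage-like cluster *Cd2* was -1.51 and *Ms4a4b* -0.058. Between the genotypes *Trdc* was 0.17 with thinned cells, 0.38 without the B lineage cells too and 0.45 without the replicate block, *Tcf7* was 0.18 with thinned cells without the B lineage cells, *Dntt* 2.02 without the early lymphoid progenitor-like cluster and *Ighm* -0.10 without the B lineage cells. Over left-out samples, with no replicate block, *Il7r* ranged from -1.76 to 0.42 (0.016 without WT of experiment 2), *Tcf7* from -1.27 to 0.14, *Nfil3* from -3.32 to 0.50 (0.23 without G3SEKO of experiment 2), *Dntt* from -1.89 to 0.50, *Trdc* from -3.17 to 1.47 (1.40 without G3SEKO of experiment 1) and *Lyz2* from -9.19 to 12.3, while *Gata3* stayed lower in G3SEKO (-4.07 to -1.42). Of 1014 values of named genes, 800 kept direction and call, 169 passed the threshold only under the alternative, 7 lost it and 38 turned. Since *Plac8* alone was called in the main fits, most of the 800 were not called in either fit. The named genes include those called with thinned cells, so their passes under thinning were set by that choice. The 11 G3SEKO members of experiment 1 limit each value of that sample.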
